A study of Mus musculus with 4 samples.

Results

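Voltage-gated potassium channel subunits were followed in RNA sequencing of mouse brain tissue from 4 groups of C57BL/6 animals. The subunits were all protein-coding genes whose symbol begins with Kcn, then carries 1 of the letters a, b, c, d, f, g, h, q, s or v, and ends in a number. This rule found 40 of the 54532 listed genes, and it used no measured value. Young and old mice were each studied without a tumor (naive) and with one (tumor-bearing), and none received a treatment. Young animals were 8 to 12 weeks old. The range given for the old ones, 8 to 90 weeks, starts at the same lower bound, so "old" is used only as labelled. Tumor-bearing mice had received 50000 GL261 cells in the brain, and their tissue was taken on day 21. GL261 is a C57BL/6 mouse glioma line grown as a transplantable model of glioblastoma. The tissue is labelled extra-tumoral, meaning brain outside the tumor mass. The naive samples carry the same cell line tag although they stood as controls without a tumor, and the groups were taken from the sample titles.

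Each group was 1 library, and how many mice it held is not given in the sources used here. No difference between groups has a replicate check, no test between groups was possible, and every statement compares libraries. The 4 libraries held 19572251 to 23267925 fragments in genes, of which 71811 to 76765 fell on the 40 subunits in the first 3 groups and 19577 in old tumor-bearing tissue. Values are the authors' FPKM, read fragments per kilobase of exon after division by a depth factor. Because FPKM is per length, levels can be set side by side between genes. The bounds beside a fold form its exact 95% interval from the recovered reads and cover counting error only. Calls of 2-fold are made on log2 ratios of FPKM + 0.1 among genes with at least 1 FPKM in 1 of the libraries compared.

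A potassium channel of this class is built from 4 pore-forming subunits around a central pore. Each subunit carries a voltage sensor, and opening upon depolarization lets potassium leave the cell, which ends action potentials and sets how often a neuron can fire. Kv1 (Kcna) channels sit along axons, Kv2 (Kcnb) on cell bodies and proximal dendrites, and Kv4 (Kcnd) carry the transient A-type current of dendrites. Kv3 (Kcnc) channels deactivate very fast and allow high-frequency firing, and Kv7 (Kcnq) channels carry the M-current that acetylcholine suppresses. The Kcnh genes encode the EAG, ERG and ELK channels. Products of Kcnf, Kcng, Kcns and Kcnv form no working channel alone, but enter Kv2 channels and change their gating, and are called electrically silent.

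What these genes share beyond their names can be read in the pore. Coding sequences of the longest GENCODE M21 transcripts were searched in frame, on the coding strand, for the codons of the potassium selectivity filter, in a row a threonine codon, any codon with T in the middle, a glycine codon, any codon that begins with TA, and a glycine codon. All 8 Kv1, both Kv2, all 4 Kv3, all 3 Kv4, all 5 Kv7 and all 10 silent subunits held it, 32 of 40 genes. Among all 21918 protein-coding genes, these 32 included, 69 held it (0.315%). The 8 Kcnh genes held the form known for phenylalanine in place of tyrosine, searched as any codon with T in the middle, a glycine codon, any codon that begins with TT, a glycine codon and any codon that begins with AA. This was found in 107 of the 21918 (0.488%), the 8 Kcnh genes included. The 2 motifs do not overlap in any member, and each member held 1 of them. Pore segments of members from several subfamilies are shown because this stretch is the common part of genes whose RNA levels differed widely, capitals marking the motif.
Kcna2: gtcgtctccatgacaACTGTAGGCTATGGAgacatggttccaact
Kcnb2: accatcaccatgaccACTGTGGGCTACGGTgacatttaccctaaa
Kcnc1: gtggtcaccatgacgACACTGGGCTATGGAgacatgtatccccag
Kcnd2: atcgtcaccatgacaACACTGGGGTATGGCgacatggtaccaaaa
Kcnh3: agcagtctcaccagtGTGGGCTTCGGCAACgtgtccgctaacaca
Kcng4: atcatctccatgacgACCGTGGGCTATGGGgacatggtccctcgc
Kcnv1: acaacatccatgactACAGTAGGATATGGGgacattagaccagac
These segments lie in coding exons of GRCm38 (mm10), at chr3:107105209-107105253 on the plus strand for Kcna2, chr1:15710031-15710075 on the plus strand for Kcnb2, chr7:46427958-46428002 (plus) for Kcnc1, chr15:99232917-99232961 (plus) for Kcnh3, chr8:119625895-119625939 (minus) for Kcng4 and chr15:45109274-45109318 (minus) for Kcnv1. That of Kcnd2 (chromosome 6, plus) runs across an exon junction. The silent subunits Kcng4 and Kcnv1 match the same pattern as Kcna2 and Kcnb2, although the codons themselves differ.

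**Figure D1:**
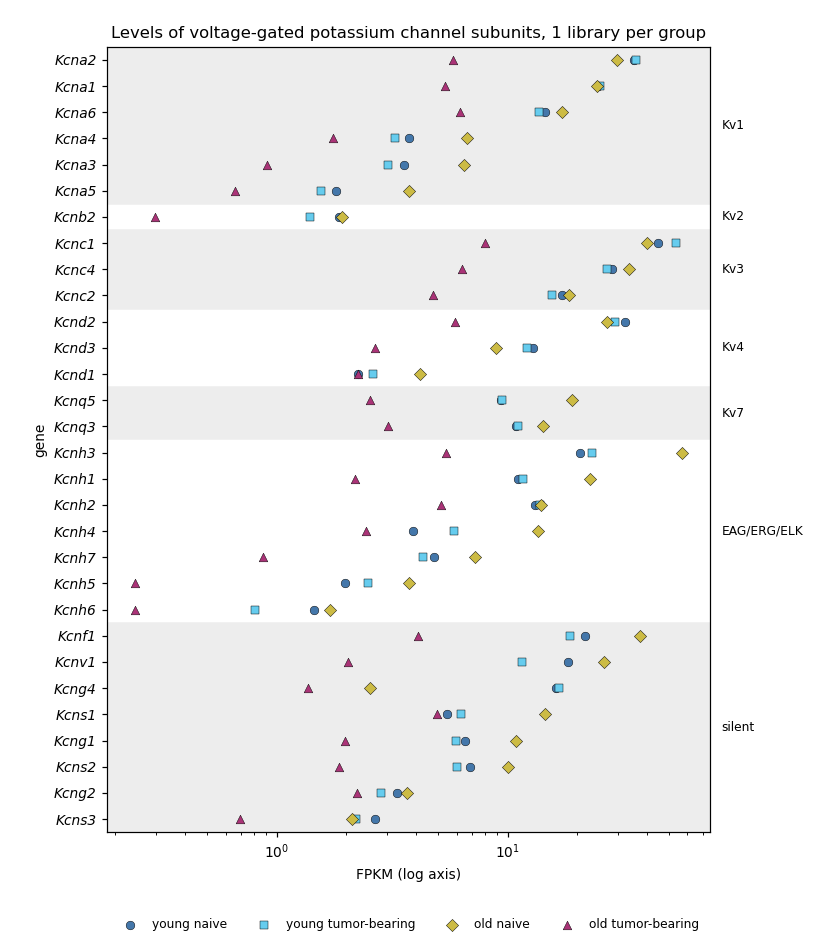
FPKM (log axis) of 30 of the 34 subunit genes that reached 1 FPKM in any library, by subfamily, with 1 point per library and no error bar because each group was 1 library. The point of the old tumor-bearing library is the lowest of the 4 for each gene drawn.

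Of the 40 genes, 34 reached 1 FPKM in at least 1 library and 26 did so in all 4. The 6 others were Kcna7 (at most 0.0788 FPKM), Kcna10 (at most 0.118), Kcng3 (at most 0.857), Kcnh8 (at most 0.290), Kcnq1 (at most 0.252) and Kcnv2 (at most 0.0392). Several of these are known from other tissues, Kcnq1 from heart and epithelia and Kcnv2 from photoreceptors. The lowest gene above the level was Kcnh6, at 1.69 FPKM in its highest library. In the rest of the text, values of a gene are given in the order young naive, young tumor-bearing, old naive, old tumor-bearing.

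Kv3 genes were the most abundant subfamily. Kcnc1, typical of fast-spiking neurons, was listed at 44.9, 53.7, 40.1 and 7.96 FPKM. Its relatives included Kcnc4 at 28.3, 26.98, 33.6 and 6.31 FPKM and Kcnc2 at 17.3, 15.6, 18.4 and 4.77 FPKM. Kcnc1 was somewhat higher in the young tumor-bearing than in the young naive library and lower in old than in young naive tissue, while Kcnc2 and Kcnc4 had the opposite order in both pairs.

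Among Kv1 genes, the axonal subunits Kcna2 and Kcna1 led. Kcna2 was at 35.1, 35.8, 29.8 and 5.76 FPKM and Kcna1 at 24.7, 25.04, 24.3 and 5.34 FPKM, so the first 3 libraries lay close together and the fourth far below. Kcna6 was listed at 14.5, 13.6, 17.1 and 6.22 FPKM, although an antisense gene at no more than 0.587 FPKM covers 39.6% of its exon bases, and reads of the strands could not be told apart. Kcna4, an A-type subunit of axons, was at 3.72, 3.26, 6.65 and 1.74 FPKM. Kcna3, the main voltage-gated channel of T lymphocytes and also present in neurons and microglia, was at 3.55, 3.02, 6.45 and 0.904 FPKM. Kcna5 was at 1.81, 1.55, 3.73 and 0.661 FPKM. All of Kcna3, Kcna4, Kcna5 and Kcna6 were highest in the old naive and lowest in the old tumor-bearing library.

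Kcnb2, a delayed rectifier subunit of the Kv2 family, was at 1.86, 1.39, 1.91 and 0.298 FPKM. Kv4 genes had a different order. Kcnd2 was listed at 32.2, 29.3, 26.96 and 5.89 FPKM, Kcnd3 at 12.9, 12.1, 8.92 and 2.66 FPKM and Kcnd1 at 2.24, 2.62, 4.17 and 2.24 FPKM. Kcnd2 and Kcnd3 were lower in old than in young naive tissue, whereas Kcnd1 was higher there and nearly equal in the young naive and old tumor-bearing libraries.

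Kcnq3, a subunit of the neuronal M-channel, was at 10.8, 11.1, 14.3 and 3.02 FPKM. Kcnq5, a further M-channel subunit, was at 9.39, 9.47, 19.1 and 2.54 FPKM. The old naive library was the highest for both.

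Kcnh3, an ELK channel of forebrain neurons, was listed at 20.5, 23.1, 56.9 and 5.39 FPKM, which made it the highest of all 40 genes in the old naive library after rank 10 in the young naive one. Its relative Kcnh4 was at 3.87, 5.83, 13.5 and 2.43 FPKM. Kcnh1, the EAG channel, was at 11.04, 11.7, 22.7 and 2.19 FPKM, and its relative Kcnh5 at 1.96, 2.48, 3.75 and 0.244 FPKM. The ERG genes were Kcnh2, whose human counterpart carries the rapid repolarizing current of the heart, at 13.2, 13.8, 13.97 and 5.15 FPKM, Kcnh7 at 4.79, 4.29, 7.20 and 0.876 FPKM and Kcnh6 at 1.45, 0.803, 1.69 and 0.242 FPKM. Kcnh2 differed from its neighbours in having nearly equal values in the first 3 libraries.

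The silent subunits spanned a wide range. Kcnf1 was at 21.7, 18.5, 37.5 and 4.08 FPKM and Kcnv1 at 18.3, 11.5, 26.2 and 2.03 FPKM. Kcng4 was at 16.2, 16.7, 2.54 and 1.37 FPKM, the only 1 of the 34 genes above 1 FPKM that was over 2-fold lower in old than in young naive tissue. Kcns1 was at 5.46, 6.27, 14.5 and 4.92 FPKM, Kcns2 at 6.84, 6.02, 9.99 and 1.86 FPKM and Kcns3 at 2.67, 2.21, 2.12 and 0.693 FPKM. Kcng1 was at 6.55, 5.99, 10.8 and 1.97 FPKM and Kcng2 at 3.32, 2.83, 3.68 and 2.23 FPKM. Apart from Kcng4 and Kcns3, the old naive library was the highest for each of these genes.

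The first comparison asked how these genes differed between young tumor-bearing and young naive brain tissue. No subunit was 2-fold apart in either direction, 0 of 34, where among 12875 protein-coding genes 2.31% passed 2-fold upward and 0.35% downward. Over the 34 genes the median log2 ratio was -0.06, against -0.02 over all protein-coding genes, and the summed FPKM of the family was 502 in naive and 510.1 in tumor-bearing tissue. Counting intervals excluded 1 upward for 6 genes and downward for 9, while 26% and 31.1% of protein-coding genes with whole reads did so. Kcnh4 was 1.51-fold (1.30 to 1.74) higher, Kcnh5 1.26-fold (1.02 to 1.56) and Kcnc1 1.20-fold (1.16 to 1.23) higher. In the other direction Kcnh6 was 1.80-fold (1.29 to 2.53) lower, with 105 and 57 reads, Kcnv1 1.59-fold (1.47 to 1.71) lower and Kcnb2 1.34-fold (1.18 to 1.52) lower. Kcnv1 stood out in this respect because it rested on 1712 and 1056 reads. Axonal and M-channel genes were near equality, with Kcna2 at 1.02-fold (0.990 to 1.05) higher and Kcnq5 at 1.01-fold (0.937 to 1.08) higher, and another scaling turned the sign of such small differences (Kcna1, Kcna2, Kcnq3 and Kcnq5). The pan-neuronal list, 18 genes that include Snap25 and Rbfox3, had a median of -0.20 and also no member 2-fold apart. Of the 34 subunits, 26 lay above that median.

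The second comparison was the same contrast in old animals. Here 31 of 34 subunits were at least 2-fold lower and 0 higher in the tumor-bearing library, and the other 3, Kcnd1, Kcng2 and Kcng4, were lower by less. Among 13582 protein-coding genes, 29.7% were lower by that much and 19.3% higher. Counting intervals lay below equality for 34 of 34 subunits and above it for 0, against 53.5% and 35.5% of protein-coding genes with whole reads. The median log2 ratio of the subunits was -2.34, that of protein-coding genes -0.28, and the summed FPKM of the family was 116 against 615, a 5.28-fold difference. Direction and size of the background depended on scaling, since the median of protein-coding genes moved upward by 0.29 to 0.57 under the scalings tried. With scaling by fragments in genes, 4019 protein-coding genes passed 2-fold upward and 2524 downward, compared with 2627 and 4028 on the deposited scale. All 34 subunits were lower under every scaling, and at least 27 of the 31 stayed at least 2-fold lower.

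**Figure D2:**
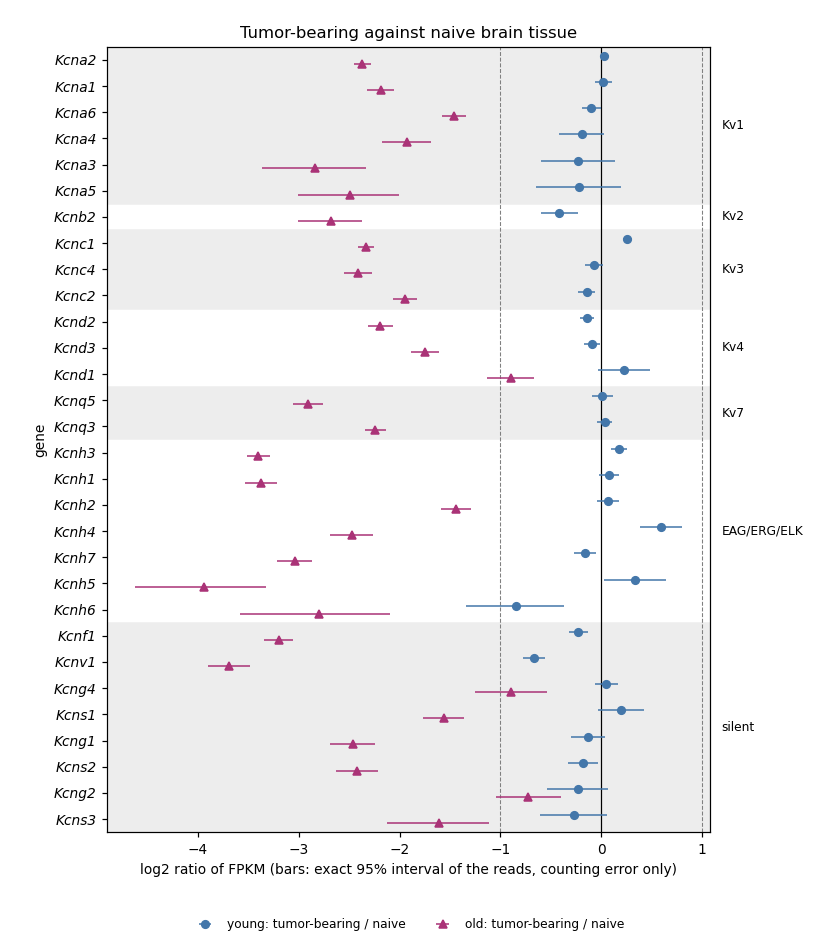
Log2 ratios of FPKM, tumor-bearing over naive, in young (circles) and old (triangles) animals for 30 of the 34 genes, with bars for the exact 95% interval of the reads (counting error only) and dashed lines at 2-fold. Young ratios cluster around 0, and old ratios run from Kcng2, 1.65-fold lower, to Kcnh5, 15.4-fold lower.

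The largest differences were those of Kcnh5 at 15.4-fold (10.01 to 24.7) lower, based on 238 and 23 reads, and of Kcnv1 at 12.9-fold (11.2 to 14.9) lower. Kcnh3 was 10.6-fold (9.77 to 11.4) lower and Kcnh1 10.4-fold (9.30 to 11.6) lower. The silent Kcnf1 was 9.19-fold (8.32 to 10.2) lower. Also lower by much were Kcnh7, 8.22-fold (7.28 to 9.31) lower, and Kcnq5, 7.51-fold (6.78 to 8.32) lower. An exon overlap of 4.57% with Gca on the opposite strand, itself at 4.61 and 6.07 FPKM, touches the Kcnh7 value.

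A middle group lay between about 4-fold and 6-fold lower. It included the axonal Kcna2 (5.17-fold, 4.89 to 5.47) and Kcna1 (4.56-fold, 4.15 to 5.01), the M-channel gene Kcnq3 (4.73-fold, 4.40 to 5.07), and Kcnd2 (4.57-fold, 4.20 to 4.99). Kv3 genes were spread over the same range, with Kcnc2 at 3.86-fold (3.55 to 4.19) and Kcnc4 at 5.32-fold (4.84 to 5.87). Kcna3 was 7.13-fold (5.05 to 10.3) lower, in a library in which 7 of 8 measured T cell genes were at least 2-fold higher (median 3.80) and 1 of 8 microglia genes were lower (median -0.14). Summed T cell genes were at 4.72 FPKM in old naive and 21.7 FPKM in old tumor-bearing tissue. Of these sums Cd4, the measured T cell gene that was lower, made up 3.87 and 2.12 FPKM. Summed microglia genes were at 131 and 142 FPKM. The part of these cells in the Kcna3 value was not tested.

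The smallest differences belonged to Kcng2 (1.65-fold lower, 1.32 to 2.06), Kcng4 (1.85-fold lower, 1.45 to 2.38) and Kcnd1 (1.86-fold lower, 1.59 to 2.19). Next came Kcnh2 (2.71-fold lower, 2.45 to 3.01), Kcna6 (2.75-fold, 2.53 to 2.99), Kcns1 (2.95-fold, 2.57 to 3.40) and Kcns3 (3.06-fold, 2.17 to 4.36). Scaling by fragments in genes brought these last 4 under 2-fold. Kcng4 was already low in old naive tissue, so its small difference began from 2.54 FPKM.

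Neuronal genes as a class were lower in the same library. In the pan-neuronal list 17 of 18 genes were at least 2-fold lower, with a median of -2.42. The cortical excitatory list had 13 of 13 (median -2.58), the fast-spiking interneuron list 8 of 8 (median -2.35) and the striatal list 8 of 8 (median -3.31). The median of the subunits was 0.07 above that of the pan-neuronal list. Of the 34 subunits, 26 lay within the span of the 18 pan-neuronal genes, -2.95 to -0.79. Those below that span included Kcnf1, Kcnh1, Kcnh3, Kcnh5 and Kcnv1, and Kcng2 was above it. In bulk tissue, fewer neurons, less RNA per neuron, a larger part of other cells and a different mix of regions cannot be told apart. The cell cycle list was higher in 10 of 10 genes (median 6.40), its summed level being 2.74 FPKM in old naive and 208 FPKM in old tumor-bearing tissue. Region lists also differed between the 2 old libraries, in both directions. In old naive and old tumor-bearing tissue, the choroid plexus list summed to 8.04 and 462 FPKM. The thalamus list summed to 17.5 and 36.0 FPKM, of which Prkcd alone made up 3.15 and 23.5 FPKM. Its other abundant genes did not share that rise, with Slc17a6 at 2.90 and 3.31 FPKM and Rora at 6.33 and 3.12 FPKM. The cerebellum list summed to 80.2 and 29.5 FPKM. The part of other cells or of regions in the subunit values was not tested.

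Partners of the channels were lower too. Of 19 listed auxiliary and partner genes, 16 were measured, 14 were at least 2-fold lower and 1 was higher (median -2.05). Kcnab2, a cytoplasmic beta subunit of Kv1 channels, was the most abundant at 85.3, 83.3, 134 and 31.8 FPKM. Kcnip2, a calcium-binding partner of Kv4 channels, was at 29.98, 30.05, 58.4 and 9.95 FPKM, and its relative Kcnip3 at 32.1, 28.1, 40.9 and 7.85 FPKM. These 3 genes were highest in old naive and lowest in old tumor-bearing tissue. The gene that was higher, named after its value was seen, was Kcne2, a small membrane subunit abundant in choroid plexus epithelium, at 1.72, 1.58, 0.217 and 1.85 FPKM. The choroid plexus list, which includes Kcne2 itself, was at least 2-fold higher in 6 of 7 genes. Its summed level was 8.04 FPKM in old naive and 462 FPKM in old tumor-bearing tissue. Most of that sum was Ttr, at 4.88 and 445 FPKM. The part of choroid plexus in the Kcne2 value was not tested.

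The third comparison, old against young naive tissue, asked how the family differed between the age groups without a tumor. In the old library 7 of 34 subunits were at least 2-fold higher and 1 was lower, against 3.26% and 3.07% of 12745 protein-coding genes. The median log2 ratio was 0.50, against 0.04 for protein-coding genes and 0.21 for the pan-neuronal list. Of the 34 subunits, 19 lay within the span of the pan-neuronal genes, -0.77 to 0.68. Counting intervals lay above equality for 22 subunits and below it for 6, where 37.2% and 30.1% of protein-coding genes did so. The ELK and EAG genes Kcnh4 (3.48-fold higher, 3.05 to 3.98), Kcnh3 (2.77-fold, 2.64 to 2.91) and Kcnh1 (2.05-fold, 1.93 to 2.19) were among the 7, as were the silent Kcns1 (2.66-fold, 2.31 to 3.06), the Kv7 gene Kcnq5 (2.03-fold, 1.90 to 2.17), and Kcna5 (2.06-fold, 1.60 to 2.65). Under the 4 other scalings the count was 3 to 5, and the 3 genes at least 2-fold higher under all of them were Kcnh3, Kcnh4 and Kcns1. Kcnf1, at 1.73-fold (1.63 to 1.83) higher, stayed below the threshold. Equal FPKM totals moved the median of all protein-coding genes by -0.22 and gave 206 of them 2-fold higher and 583 lower, against 415 and 391 on the deposited scale. Kcnb2, Kcnc2, Kcng2, Kcnh2 and Kcnh6, all higher on the deposited scale, were lower under it.

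Kcng4 was the gene that was lower, 6.38-fold (5.38 to 7.60), with 1258 reads in the young and 151 in the old naive library. Kcnd3 was 1.44-fold (1.35 to 1.54) lower. Marker genes of brain regions differed between the same libraries. The cerebellum list had 9 of 10 genes at least 2-fold lower in the old naive library (median -4.49), its summed level being 513 FPKM in the young and 80.2 FPKM in the old naive library, and the granule cell gene Cbln3 was at 70.8, 84.01, 0.144 and 0.00884 FPKM. The thalamus list had 4 of 5 genes lower (median -2.35) and the choroid plexus list 8 of 8 (median -2.55). Cortical excitatory genes were higher in 5 of 13 (median 0.81) and striatal genes in 4 of 8 (median 0.98). Pvalb, a marker of fast-spiking interneurons and Purkinje cells, was at 173, 151, 62.7 and 16.7 FPKM. The regions contained in each sample and the age label cannot be told apart here, and the part of either in the subunit values was not tested.

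**Figure D3:**
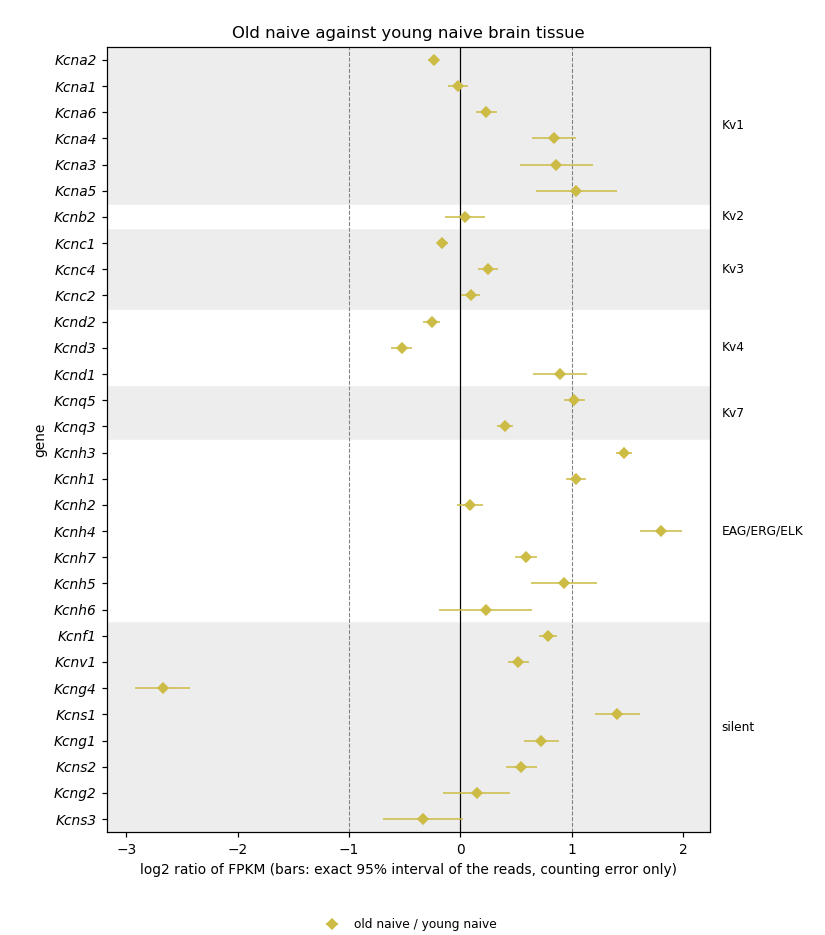
Log2 ratio of FPKM, old naive over young naive, for 30 of the 34 genes, with exact 95% intervals of the reads (counting error only) and dashed lines at 2-fold. Kcng4 stands alone on the left, 6.38-fold lower, and Kcnh4, Kcnh3 and Kcns1 are farthest to the right.

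Promoters of genes that differed in opposite directions in this comparison can be set side by side. RefSeq windows on GRCm38.p6, from 250 bases before to 50 after a start, were at hand for 25 of the 40 genes, 30 windows in all. In 20 of the 30 windows the last 40 bases lay in a GENCODE transcript of the gene. The 250 bases upstream of the RefSeq start are shown for Kcng4, the gene lower in old naive tissue, and for Kcnh1, Kcnh4 and Kcns1, which were higher. They come from the first window listed for each gene. For Kcnh4 that start lies inside the GENCODE M21 gene, which begins at chr11:100759942, so much of the sequence shown is within that gene. Capitals mark the GC box GGGCGG or its reverse complement.
Kcng4: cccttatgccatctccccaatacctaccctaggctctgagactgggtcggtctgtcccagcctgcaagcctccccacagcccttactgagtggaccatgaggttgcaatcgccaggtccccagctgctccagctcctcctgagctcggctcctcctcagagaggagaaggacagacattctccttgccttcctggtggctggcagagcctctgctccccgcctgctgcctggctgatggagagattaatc
Kcnh1: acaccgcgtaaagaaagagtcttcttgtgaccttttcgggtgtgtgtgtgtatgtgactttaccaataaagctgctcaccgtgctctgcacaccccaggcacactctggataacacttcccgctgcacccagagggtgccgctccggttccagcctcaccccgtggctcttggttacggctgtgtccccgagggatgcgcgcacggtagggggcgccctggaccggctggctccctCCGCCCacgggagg
Kcnh4: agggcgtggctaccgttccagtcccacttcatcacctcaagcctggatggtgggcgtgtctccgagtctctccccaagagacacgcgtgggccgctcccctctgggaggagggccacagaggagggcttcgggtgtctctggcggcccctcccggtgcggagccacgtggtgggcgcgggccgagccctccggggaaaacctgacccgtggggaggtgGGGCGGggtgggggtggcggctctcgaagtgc
Kcns1: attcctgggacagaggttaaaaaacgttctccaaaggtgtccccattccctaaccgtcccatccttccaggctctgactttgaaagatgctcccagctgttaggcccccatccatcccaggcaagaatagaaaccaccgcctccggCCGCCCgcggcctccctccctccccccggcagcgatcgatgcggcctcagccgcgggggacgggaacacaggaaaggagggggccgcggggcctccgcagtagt
They lie at chr8:119635681-119635930 (minus strand), chr1:192190527-192190776 (plus strand), chr11:100759779-100760028 (minus strand) and chr2:164171114-164171363 (minus strand). The Kcng4 window holds 4 CG dinucleotides and no GC box, while those of Kcnh1, Kcnh4 and Kcns1 hold 17, 20 and 17 CG dinucleotides and 1 GC box each. Whether such counts go with the direction of the difference was not tested. Over the whole 300 bases and both strands, GGGCGG was found in 18 of 30 windows of the family (60%) and in 35.7% of all 32851 windows. TATAAA was in 0 of 30 and in 13.6% of all. The cAMP response element TGACGTCA was in 0 of 30 and in 1.79% of all, so no motif overlapped another in windows of the family. The median GC content was 64.7% in windows of the family and 52.7% in all windows, with medians of 19.5 and 7 CG dinucleotides.

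The fourth comparison set old against young tumor-bearing tissue. It shares its libraries with the comparisons above. In the old library 29 of 33 measured subunits were at least 2-fold lower and 0 higher, where 27.9% of 13656 protein-coding genes were lower and 17.6% higher (median -1.91 for subunits, -0.27 for protein-coding genes). Counting intervals lay below equality for 32 of the 33 and above it for 0, against 53.4% and 35.4% of protein-coding genes. In the pan-neuronal list 16 of 18 genes were at least 2-fold lower (median -2.13), and 20 of the 33 subunits lay above that median. With median-of-ratios scaling the protein-coding counts were 3345 higher and 2582 lower, against 2404 and 3811 on the deposited scale. Kcng4 was the farthest apart, 12.2-fold (10.2 to 14.9) lower, and Kcnh5 (10.2-fold lower, 6.58 to 16.4) and Kcnc1 (6.75-fold, 6.41 to 7.10) were also far apart. The 4 genes within 2-fold were Kcna4 (1.87-fold lower, 1.56 to 2.24), Kcns1 (1.28-fold, 1.09 to 1.49), Kcng2 (1.27-fold, 1.01 to 1.59) and Kcnd1, whose interval included equality (1.17-fold lower, 0.988 to 1.39). The scalings moved the median of protein-coding genes upward by 0.11 to 0.39. For Kcns1, Kcng2 and Kcnd1 the sign turned under median-of-ratios scaling and scaling by fragments in genes. The cerebellum list was lower in 10 of 10 genes (median -5.18), as it had been between the naive libraries, and its part in these values was not tested.

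The difference between the tumor contrasts was taken as the old log2 ratio minus the young log2 ratio. It was below 0 for all 34 subunits, with a median of -2.23, and for 8132 of 13911 protein-coding genes, with a median of -0.27. Pan-neuronal medians in these contrasts were -2.42 in old and -0.20 in young animals. The difference was most negative for Kcnh5 (-3.80), Kcnh3 (-3.55) and Kcnh1 (-3.39), and nearest to 0 for Kcng2 (-0.47), Kcng4 (-0.89) and Kcnd1 (-1.09). By arithmetic, a higher level in old than in young naive tissue makes it more negative. That naive log2 ratio was 1.47 for Kcnh3, 1.03 for Kcnh1 and -2.63 for Kcng4, but 0.87 for Kcnd1. Of the 34 subunits, 6 had an interval above equality in young and below it in old animals (12.5% of protein-coding genes) and 0 the reverse (6.19%). The reverse could not occur among the subunits, since all 34 lay below equality in old animals. No test of this difference was possible with 1 library per group.

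The makeup of the family can be compared without any depth scaling, since a share of the summed FPKM is taken within a library. Kv3 genes held 30.5%, 33.8%, 21.3% and 24.97%, the largest share in each library. The share of the Kcnh genes was 11.4%, 12.2%, 19.5% and 14.2%, and that of the silent subunits 16.3%, 13.8%, 17.6% and 16.6%. Kv1 genes held 16.6%, 16.1%, 14.4% and 17.8%, Kv7 genes 11.2%, 11.2%, 13.9% and 12.96% and Kv4 genes 9.43%, 8.62%, 6.52% and 9.27%. Thus the old naive library had the highest Kcnh share and the lowest Kv3 share, and the old tumor-bearing library lay between it and the young libraries in both.

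**Figure D4:**
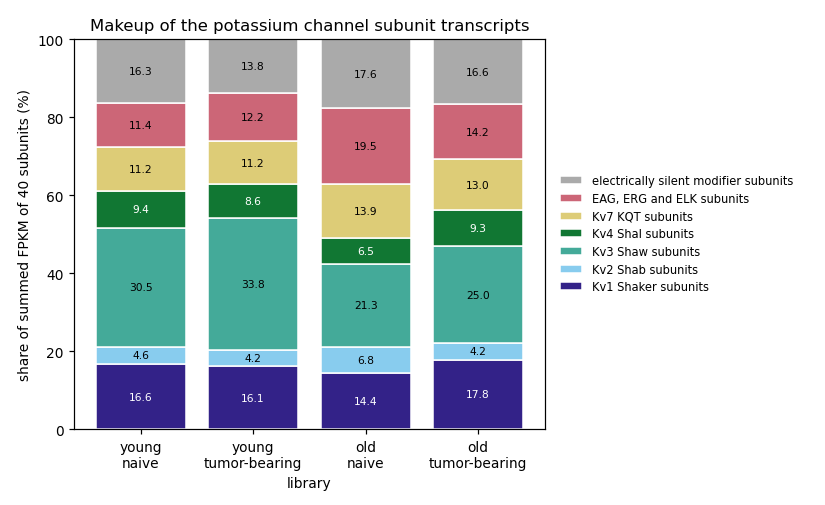
Share of the summed FPKM of the 40 genes (percent, linear axis from 0) held by each subfamily in each library, 1 library per group. The Kv3 block is the largest in all 4 libraries and smallest in old naive tissue at 21.3%, where the Kcnh block is largest at 19.5%.

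Within this makeup, 5 genes held 36.2% of the family in old naive and 33.7% in old tumor-bearing tissue, against 41.5% and 44.7% in the young naive and young tumor-bearing libraries. The share of Kcng4 was 7.80-fold smaller in old than in young naive tissue, while the shares of Kcnh4, Kcnh3 and Kcns1 were 2.84-fold, 2.27-fold and 2.17-fold larger. From old naive to old tumor-bearing tissue, the shares of Kcnh5 and Kcnv1 were 2.91-fold and 2.45-fold smaller, and those of Kcng2, Kcng4 and Kcnd1 3.20-fold, 2.85-fold and 2.83-fold larger. The order of the 40 genes by level was nevertheless alike between libraries. Spearman's rho across genes, which are not independent replicates, was 0.99 between the young libraries, 0.93 between the naive libraries and 0.90 between the old libraries.

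**Figure D5:**
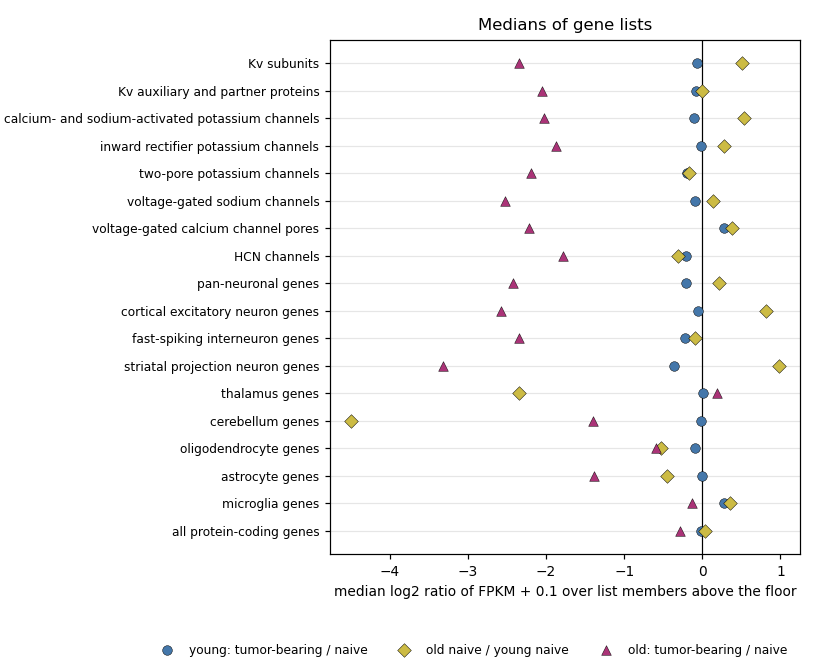
Median log2 ratio of FPKM + 0.1 of the subunits, of other channel lists, of cell type and region lists and of all protein-coding genes, in 3 comparisons, over list members above the floor. The subunits (-2.34) lie beside the pan-neuronal list (-2.42) in the old tumor comparison, and the cerebellum list lies at -4.49 in old against young naive tissue.

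Medians of glial and other lists lay both above and below 0 in the old tumor comparison. Astrocyte genes were at least 2-fold lower in 5 of 8 and higher in 1 (median -1.39), the higher one being Gfap. Oligodendrocyte genes were lower in 1 of 11 and higher in 1 (median -0.59). Oligodendrocyte precursor genes were lower in 2 of 7 and higher in 1 (median 0.26). The higher gene of both these lists was Sox10, at 24.5 FPKM in old naive and 156 FPKM in old tumor-bearing tissue. Endothelial genes were lower in 3 of 8 and higher in 1 (median -0.51). Cerebellum genes were lower in 4 of 6 (median -1.40), while thalamus genes were higher in 2 of 5 (median 0.19). Monocyte and macrophage genes were higher in 8 of 9 (median 3.37). Every one of the 7 subunit groups had a lower median than the astrocyte list, from -1.71 for Kv4 to -2.90 for the Kcnh genes. Single astrocyte genes ran from -2.31 (Slc1a2) to 1.98 (Gfap), so they were not set apart from the subunits.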

How the data were processed

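Poly-A RNA of brain tissue was sequenced as paired-end libraries, 1 per group, and groups came from the sample titles. Both a strand-specific and an unstranded preparation are described in the labels' protocols without saying which was used. The values deposited by the authors are FPKM, per the file headers. HISAT2 and mm10 are named, per the submitters' processing notes. The counter, annotation and filters are not given in the sources used here.

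Symbols, gene types and exon lengths came from GENCODE M21 (54495 of 54532 genes named). For most genes, FPKM times exon length was a whole multiple of the value of 1 read, which gave the authors' depth divisors (15646445 to 23253749) and gene-wise reads. Among 32867 genes above 0, 31928 (97.1%) were whole in all 4 libraries within 0.03 reads or 2e-05 of the value, all 40 subunits among them. The limit that a count of 0 allows is 3 reads, or 0.129 to 0.192 FPKM for a gene of 1 kb. The ratio of divisor to fragments was 0.797 to 1.19. With 1 library per group, no count test was run. Log2 ratios used FPKM + 0.1, which understates differences of low genes, and a floor of 1 FPKM. Intervals are exact conditional binomial (Clopper-Pearson), covering counting error only, since PCR reads are not independent molecules. The recovery and the counting of 2-fold genes were tested on simulated data. Python 3.11.15, numpy 2.4.6, pandas 2.3.3 and scipy 1.17.1 were used.

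Named were all subunits above 1 FPKM, with up to 3 most abundant genes of other lists. Results of some of these genes are not reported here. Others are marked as chosen after their values were seen. The subunits and the 29 gene lists were chosen with earlier results of these data known. Alternatives were other pseudocounts, floors, scalings and a 1.5-fold threshold.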

Additional observations from a re-analysis of the deposited data

Results flagged for a closer look

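In 6 of 34 subunits the tumor-bearing library was higher than naive in the young animals and lower in the old ones, each beyond the counting interval. This was not tested, since each effect rests on 1 library against 1 other, and 12.5% of 11900 protein-coding genes showed the same pattern. Among them the differences, old log2 ratio minus young log2 ratio, were -3.80 for Kcnh5, -3.55 for Kcnh3, -3.01 for Kcnh4 and -2.58 for Kcnc1. Of these genes, Kcnh5, Kcnh3 and Kcnh4 were also higher in old than in young naive tissue, whereas Kcnc1 was lower there. All 34 subunits lay below equality in the old animals, so these 6 are simply those above equality in the young ones. In the young comparison 26% of protein-coding genes lay above equality. For the same reason no subunit could show the opposite pattern, which 6.19% of the protein-coding genes did. The young part of these differences was small, from 1.13-fold for Kcnh3 to 1.51-fold for Kcnh4.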

How the results depend on the processing

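No paired analysis was possible because each group was 1 library. Some results changed with the setting, and apart from the choice of scale or filter itself the cause was not tested. In the old tumor comparison the median log2 ratio of the subunits (-2.34) was -1.99 with median-of-ratios scaling, -1.93 with equal FPKM totals, -1.80 when scaled by fragments in genes, -2.06 with equal totals without mitochondrial and the 50 highest genes, and -1.95 with a pseudocount of 1. In old against young tumor-bearing tissue the median (-1.91) was -1.59, -1.80 and -1.61 under the first 3 of these scalings, -1.53 with a pseudocount of 1, -2.09 with 0.01, -1.76 with no floor and -2.08 with a floor of 5 FPKM. In old against young naive tissue the median (0.50) was 0.28 with equal FPKM totals, 0.36 when scaled by fragments in genes, 0.38 without mitochondrial and the 50 highest genes and 0.40 with no floor. The 7 subunits at least 2-fold higher there were 3 under each of these scalings and with a pseudocount of 1, and 14 at a 1.5-fold threshold, while the 1 lower was 2 with no floor and 2 at 1.5-fold. In the young tumor comparison 2 subunits were lower at 1.5-fold, Kcnh6 and Kcnv1. No subunit that was 2-fold apart changed sign under any scaling or pseudocount. Depth limits the lowest genes most, Kcnh6 and Kcnh5 resting on 20 and 23 reads in the old tumor-bearing library.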

Other observations

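Other ion channel lists, which are not limited to genes of neurons, were set beside the voltage-gated potassium channels. Between the old libraries, tumor-bearing against naive, voltage-gated sodium channel genes were at least 2-fold lower in 8 of 8 measured members (median log2 ratio -2.53) and calcium channel pore genes in 8 of 8 (-2.22). Inward rectifiers were lower in 10 of 12 (-1.87), tandem-pore potassium channels in 5 of 8 (-2.19) and HCN pacemaker channels in 3 of 4 (-1.78). Scn2b, a sodium channel beta subunit, was at 88.1, 74.9, 88.5 and 14.6 FPKM. Kcnj10, the inward rectifier of astrocytes, was at 56.6, 58.6, 38.7 and 20.6 FPKM, 1.87-fold (1.78 to 1.97) lower.

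A single gene of the calcium- and sodium-activated list went the other way, while 7 of 8 were lower. Kcnn4, a calcium-activated potassium channel of lymphocytes, macrophages and epithelia that depolarization does not open, was listed at 0.0574, 0.762, 0.187 and 13.3 FPKM. It had 6, 78, 15 and 1578 reads in the same order, and was 13.3-fold (5.84 to 37.3) higher in young and 70.8-fold (42.8 to 127) higher in old tumor-bearing tissue. Kcnn4 was chosen after its values were seen. Kcna3, the voltage-gated potassium channel of T lymphocytes, was lower in the same old comparison (7.13-fold, 5.05 to 10.3). T cell genes were at a summed level of 4.72 FPKM in old naive and 21.7 FPKM in old tumor-bearing tissue, of which Cd4 was 3.87 and 2.12 FPKM. Monocyte and macrophage genes were at 18.6 and 282 FPKM. The part of these cells in the Kcnn4 value was not tested.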
